A study of Homo sapiens with 6 samples.

Results

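The set described here is the machinery that builds ribosomes, namely the genes that the authors' annotation column places on the pathway map "ribosome biogenesis in eukaryotes", leaving out ribosomal proteins. Of the 59962 genes in the deposited table, 209 carried that map. A gene counted as a member when its TPM value (a length-corrected share of a library's transcripts) reached at least 1 in at least 2 of the 6 libraries. This left 93 members among 16610 genes tested. The other 116 genes on the map were under that minimum. Of these, 90 were listed at 0 in all libraries, 8 were protein coding, and the highest single value was 3.78 TPM. By GENCODE 29, 73 of the 93 members are protein coding. Known roles placed 73 members in complexes or steps, and the other 20 are pseudogenes, antisense transcripts and unplaced loci. The 73 placed members include the pseudogene RRP7BP, and the 20 include FP565260.1, which is protein coding.

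Ribosomes are made in the nucleolus, where RNA polymerase I copies a long precursor RNA that is modified, folded and cut while it is being copied. Small nucleolar ribonucleoproteins (snoRNPs) place methyl groups and pseudouridines on it, and a very large particle, the small-subunit processome, assembles on its front part. Large-subunit precursors mature along a separate path with many GTPases and AAA ATPases before both subunits leave the nucleus. The transcription factor MYC is a known activator of many of these genes, and proliferating tumour cells are known for high output of this pathway.

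CFPAC-1 is a cell line from a metastasis of a human pancreatic ductal adenocarcinoma. The libraries were made from total RNA of CFPAC-1 cells with a knockdown of SULF2 using sgRNA1 (2 libraries), of CFPAC-1 cells with a knockdown of SULF2 using sgRNA3 (2 libraries), and of CFPAC-1 cells with a LACZ knockdown (2 libraries), a target that human cells lack, which serve as the control. SULF2 is an extracellular enzyme that removes sulfate groups from heparan sulfate. The labels describe the guide lines as knockdowns, do not name the effector used with the guides, and do not state whether a line is 1 clone, or whether the 2 libraries of a group come from separate cultures. The p-values therefore measure the spread between these libraries, which may be technical.

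SULF2 was at 8.98 and 12.8 TPM in sgRNA1 libraries, 10.1 and 9.24 TPM in sgRNA3 libraries, and 25.7 and 22.5 TPM in LACZ libraries, so SULF2 transcripts remained in both guide lines. The log2 changes of SULF2 were -1.09 with sgRNA1 and -1.23 with sgRNA3, with limma adjusted p of 0.0338 and 0.0215. Those calls were lost in 11 and 7 of 15 alternative settings and left-out libraries. Over all 15, the log2 changes stayed between -1.33 and -0.86. MYC was at 107 and 109 TPM in sgRNA1 libraries, 138 and 129 TPM in sgRNA3 libraries, and 281 and 283 TPM in LACZ libraries. Its log2 changes were -1.38 with sgRNA1 and -1.08 with sgRNA3, with limma adjusted p of 0.000587 and 0.00128. Ductal epithelial markers summed to 8460.0 and 8257 TPM in sgRNA1 libraries, 8892 and 8853 TPM in sgRNA3 libraries, and 9507 and 9344 TPM in LACZ libraries, and of 9 tested, 4 fell with each guide, KRT18, KRT19 and SOX9 with both, CDH1 with sgRNA1 and CLDN4 with sgRNA3. Fibroblast markers, 4 of 8 under 1 TPM in every library, summed to 65.5 and 63.0 TPM with sgRNA1, 60.4 and 39.6 TPM with sgRNA3, and 80.6 and 82.8 TPM with LACZ, most of it COL1A1, which fell with both guides (limma adjusted p = 0.0403 with sgRNA1 and 0.0036 with sgRNA3). Leukocyte markers, 4 of 8 under 1 TPM in every library and MS4A1 listed at 0, summed to 107 and 102 TPM with sgRNA1, 112 and 114 TPM with sgRNA3, and 96.6 and 103 TPM with LACZ. Most of this was CD68, a lysosomal gene that tumour cells also express, which rose with sgRNA3 (limma adjusted p = 0.0416). Over all genes tested, 4.31% fell with sgRNA1 and 5.25% with sgRNA3, and 3.84% rose with sgRNA3. The part of these marker changes in the results on members was not tested.

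Members ranged widely in level, with mean values over the 6 libraries between 0.808 TPM and 671 TPM, the highest being the export GTPase RAN. Their median was 30.3 TPM, against 12.9 TPM over all genes tested. Summed over members, the level was 5999.7 and 5776 TPM in sgRNA1 libraries, 6085 and 6127 TPM in sgRNA3 libraries, and 5634 and 5759 TPM in LACZ libraries. The sgRNA3 sums lay above all others. Over the 73 members placed in a role list, the sums were 5790.3 and 5534 TPM in sgRNA1 libraries, 5884 and 5911 TPM in sgRNA3 libraries, and 5463 and 5574 TPM in LACZ libraries, so that the sgRNA1 and LACZ sums overlapped there. In bulk RNA, more cells of a type and more RNA per cell cannot be told apart.

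Few members passed the test with either guide, and each member that passed was higher with the guide than with LACZ. With sgRNA3, 7 of 93 members rose (7.53%, where 3.84% of all genes tested rose) and 0 fell (5.25% of all genes fell). With sgRNA1, 2 members rose (2.15%, against 1.69% of all genes) and 0 fell (4.31% of all genes). The test was limma on log2(TPM + 1), with the 3 groups in 1 fit and Benjamini-Hochberg adjustment over all 16610 genes, and a gene passed at an adjusted p under 0.05. A fold change on this scale understates the change of low genes. At an unadjusted p under 0.05, 20 members were higher and 4 lower with sgRNA3 (11.7% and 16.3% of all genes), and 5 were higher and 9 lower with sgRNA1 (8.36% and 16.2% of all genes). The 2 members that rose with sgRNA1, NOP56 and IMP3, also rose with sgRNA3, which shares the LACZ libraries with sgRNA1 (1.15% of all genes rose with both guides and 2.9% fell with both).

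The median log2 change of the members was 0.06 with sgRNA3, against -0.05 over all genes tested, and -0.02 with sgRNA1, against -0.07 over all genes. The sign of the sgRNA1 median depended on scaling: it was 0.06 after median-of-ratios scaling and 0.02 after quantile normalization, while the sgRNA3 median was above 0 under both. The values of the sgRNA3 libraries lay wholly above those of the LACZ libraries in 39 members (24.8% of all genes) and wholly below in 17 (34.3% of all genes). The sgRNA1 libraries lay wholly above the LACZ libraries in 20 members (19.8% of all genes) and wholly below in 24 (35.2% of all genes). By sign alone, 57 log2 changes were above 0 and 36 below with sgRNA3 (44.5% and 55.5% of all genes), and 40 were above and 53 below with sgRNA1 (40.5% and 59.3% of all genes). Among all genes that passed, 42.2% were higher with sgRNA3 and 28.2% with sgRNA1. These shares became 56.9% and 51.3% after median-of-ratios scaling, and 49% and 44.1% after quantile normalization.

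**Figure D1:**
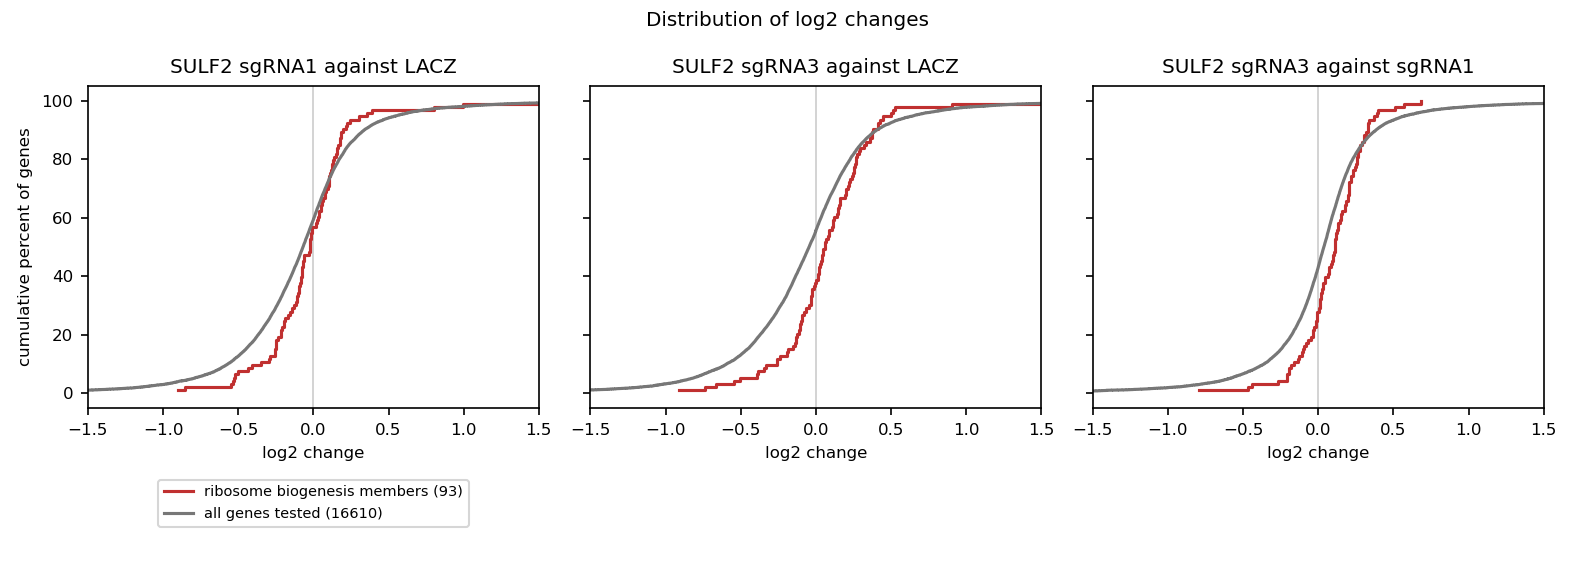
Cumulative distribution of log2 changes (x axis, log2(TPM + 1) scale; y axis, percent of genes at or below that change) for the 93 members (red) and all 16610 genes tested (grey), in 3 comparisons, with the x axis shown between -1.5 and 1.5. The members' curve crosses 50% at 0.06 with sgRNA3, at -0.02 with sgRNA1, and at 0.11 for sgRNA3 against sgRNA1, each time to the right of the grey curve at that height.

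Box C/D snoRNPs carry the guides for methylation of ribosomal RNA and include the U3 particle that starts the small-subunit processome. NOP56, a core scaffold protein of these particles (chr20:2652145-2658393, plus strand, GRCh38), was at 347 and 337 TPM in sgRNA1 libraries, 382 and 369 TPM in sgRNA3 libraries, and 260.1 and 261 TPM in LACZ libraries. All 4 guide libraries lay above both LACZ libraries, and the LACZ pair differed by far less than the distance to the guides. NOP56 rose with both guides, by a log2 change of 0.52 ± 0.04 with sgRNA3 and 0.39 ± 0.04 with sgRNA1 (± is the standard error here and below), with limma adjusted p of 0.00364 and 0.00858. Its sgRNA3 call held under each of the 15 alternative settings and left-out libraries. Its sgRNA1 call was lost without sgRNA1 replicate 1 (adjusted p = 0.0526), sgRNA1 replicate 2 (0.0538), LACZ replicate 1 (0.0755) or LACZ replicate 2 (0.0642), and with no variance trend in limma (0.0722).

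The partners of NOP56 in the same particle did not pass. NOP58, the other scaffold protein, was at 108 and 101 TPM with sgRNA1, 127 and 119 TPM with sgRNA3, and 116 and 104 TPM with LACZ. SNU13, which binds the kink-turn of the guide RNA, was at 101 and 96.6 TPM with sgRNA1, 103 and 105 TPM with sgRNA3, and 104 and 109 TPM with LACZ. The methyltransferase FBL, listed at a level close to that of NOP56, had overlapping groups and log2 changes of -0.05 with sgRNA3 and -0.02 with sgRNA1. NOP56 was the 1 of the 4 proteins of this particle that passed, and the difference between its change and theirs was not tested. Introns of NOP56 hold the snoRNAs SNORD86, SNORD110, SNORD57, SNORD56 and SNORA51 and the microRNA MIR1292, and all 6 are listed at 0 in every library.

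Box H/ACA snoRNPs guide pseudouridylation, and none of their 4 proteins passed with either guide. DKC1, the pseudouridine synthase, was at 84.1 and 77.2 TPM in sgRNA1 libraries, 93.8 and 91.9 TPM in sgRNA3 libraries, and 79.9 and 77.2 TPM in LACZ libraries. The sgRNA3 libraries stood above the LACZ libraries, with a log2 change of 0.24 ± 0.06 and a limma adjusted p of 0.0721. NOP10, the most abundant of the 4, was at 300.3 and 336 TPM with sgRNA1, 296 and 260.0 TPM with sgRNA3, and 292 and 299.9 TPM with LACZ. NHP2 was at 312 and 293 TPM with sgRNA1, 330.0 and 271 TPM with sgRNA3, and 272 and 290.4 TPM with LACZ. The sgRNA3 and LACZ values of both genes overlapped.

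The small-subunit processome is built from named subcomplexes. UTP-A, also called t-UTP, is the first to join the precursor RNA and is linked to its transcription. UTP4 (cirhin, chr16:69131291-69231130, plus strand), a WD-repeat protein of UTP-A, was at 68.7 and 64.5 TPM in sgRNA1 libraries, 76.0 and 78.0 TPM in sgRNA3 libraries, and 62.1 and 63.8 TPM in LACZ libraries. It rose with sgRNA3 (log2 change 0.29 ± 0.06, limma adjusted p = 0.0427) and did not pass with sgRNA1 (0.08 ± 0.06, adjusted p = 0.444). The call was lost when any 1 of the 6 libraries was left out, with adjusted p between 0.0579 and 0.17.

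The other 4 UTP-A members did not pass and lay on both sides. HEATR1 was at 22.4 and 20.4 TPM with sgRNA1, 24.7 and 27.6 TPM with sgRNA3, and 21.7 and 21.2 TPM with LACZ, with a log2 change of 0.27 and a limma adjusted p of 0.137 with sgRNA3. WDR75 was at 63.2 and 47.0 TPM with sgRNA1, 53.5 and 49.5 TPM with sgRNA3, and 48.1 and 46.6 TPM with LACZ. UTP15 was at 26.2 and 23.6 TPM with sgRNA1, 28.6 and 25.4 TPM with sgRNA3, and 32.3 and 31.7 TPM with LACZ, so that all guide libraries were below both LACZ libraries. Its log2 changes of -0.24 with sgRNA3 and -0.35 with sgRNA1 had limma adjusted p of 0.176 and 0.0936. WDR43 was at 43.7 and 45.4 TPM with sgRNA1, 43.0 and 48.3 TPM with sgRNA3, and 52.5 and 48.1 TPM with LACZ. The log2 changes of the 5 UTP-A members ran between -0.24 and 0.29 with sgRNA3 and between -0.35 and 0.20 with sgRNA1.

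UTP-B bridges the precursor RNA and the U3 particle. UTP18 (chr17:51260528-51297936, plus strand), its most abundant member here, was at 104 and 110.2 TPM in sgRNA1 libraries, 128 and 130.4 TPM in sgRNA3 libraries, and 109.6 and 108 TPM in LACZ libraries. It rose with sgRNA3 (log2 change 0.25 ± 0.05, limma adjusted p = 0.0439), while the sgRNA1 values lay on both sides of the LACZ values (-0.02 ± 0.05, adjusted p = 0.84, with the sign above 0 after both other scalings). Left-out libraries ended the sgRNA3 call in each of 6 cases, with adjusted p between 0.0563 and 0.175. With sgRNA3 all 6 UTP-B members had log2 changes above 0 (44.5% of all genes), between 0.11 and 0.34. With sgRNA1 the changes ran between -0.11 and 0.16. TBL3 was at 24.0 and 24.1 TPM with sgRNA1, 22.4 and 25.3 TPM with sgRNA3, and 20.8 and 21.9 TPM with LACZ. WDR36 was at 24.6 and 21.1 TPM with sgRNA1, 25.8 and 25.9 TPM with sgRNA3, and 20.6 and 20.0 TPM with LACZ, with a log2 change of 0.34 ± 0.10 and a limma adjusted p of 0.0921 with sgRNA3. WDR3 was at 14.4 and 14.7 TPM with sgRNA1, 17.0 TPM in both sgRNA3 libraries, and 15.6 and 15.7 TPM with LACZ. PWP2 shares 88.2% of its transcript windows of 50 bases with FP565260.1, a copy on the same chromosome, so the authors' counting could split reads between them and its value is uncertain.

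Sequence upstream of these genes was compared for 3 letter patterns on both strands: CACGTG (an E-box, the pattern MYC binds), CCGGAAG (an ETS pattern) and GGGCGG (an SP pattern). None of the 3 patterns contains another. The RefSeq promoter table (GRCh38.p14) held 81 start sites for 68 of the 93 members, and the 250 bases before each were searched. The E-box letters were in 19.8% of members' windows, against 8.12% of 15424 windows of genes tested. The ETS letters were in 30.9%, against 13.9%, and the SP letters in 66.7%, against 62%. These are descriptions of letters, since no binding was measured here. Among the 7 members that passed, UTP18 and UTP4 hold the E-box letters, UTP18, UTP4 and GTPBP4 the ETS letters, and neither IMP3 nor SBDS holds any of the 3. UTP18 and SBDS are shown because both passed with sgRNA3 alone while their windows stand at opposite ends, all 3 patterns against none. The stretch before UTP18 is chr17:51260296-51260527 on the plus strand and that before SBDS is chr7:66995602-66995836 on the minus strand. Both are cut to the bases outside every annotated exon, are written in the direction of the gene, and have pattern letters in capitals.
UTP18: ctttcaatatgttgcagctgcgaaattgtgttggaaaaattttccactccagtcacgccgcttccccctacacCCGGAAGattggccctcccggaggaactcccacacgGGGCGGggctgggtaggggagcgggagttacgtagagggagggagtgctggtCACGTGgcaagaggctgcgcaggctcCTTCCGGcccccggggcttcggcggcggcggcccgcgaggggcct
SBDS: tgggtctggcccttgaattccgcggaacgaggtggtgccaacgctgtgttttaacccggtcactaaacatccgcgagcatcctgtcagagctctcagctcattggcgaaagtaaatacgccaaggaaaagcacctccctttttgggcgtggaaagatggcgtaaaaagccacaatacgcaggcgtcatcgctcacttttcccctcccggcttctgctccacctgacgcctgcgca

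UTP-C joins the processome with casein kinase 2, and none of the 6 members listed there passed. Of these, 5 are protein coding and RRP7BP is a transcribed pseudogene. The catalytic subunit CSNK2A2 was at 40.4 and 40.1 TPM in sgRNA1 libraries, 43.4 and 44.7 TPM in sgRNA3 libraries, and 49.2 and 47.0 TPM in LACZ libraries, with all guide libraries below LACZ and a limma adjusted p of 0.0734 with sgRNA1 and 0.243 with sgRNA3. The regulatory subunit CSNK2B was at 233 and 209 TPM with sgRNA1, 216 and 215 TPM with sgRNA3, and 234 and 232 TPM with LACZ. CSNK2A1 was at 132 and 118 TPM with sgRNA1, 122 and 131 TPM with sgRNA3, and 124 and 121 TPM with LACZ, with overlapping groups.

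The Mpp10 complex, made of MPHOSPH10, IMP3 and IMP4, holds the U3 RNA on the precursor. IMP3 (chr15:75639085-75648706, minus strand) showed the largest change of the members that passed. It was at 51.9 and 58.4 TPM in sgRNA1 libraries, 57.1 and 61.1 TPM in sgRNA3 libraries, and 31.0 and 31.2 TPM in LACZ libraries. Its mean level was 177% of LACZ with sgRNA1 and 190.0% with sgRNA3, and the LACZ pair differed by less than 1 TPM. The log2 changes were 0.90 ± 0.08 with sgRNA3 and 0.80 ± 0.08 with sgRNA1, with limma adjusted p of 0.00652 and 0.00947. The difference between the guides was 0.10 on the log2 scale, with a 95% interval of -0.10 to 0.30. The sgRNA1 call was lost without sgRNA1 replicate 2 (adjusted p = 0.0544), LACZ replicate 1 (0.0826) or LACZ replicate 2 (0.0749), and the sgRNA3 call without sgRNA3 replicate 2 (0.0567), LACZ replicate 1 (0.0596) or LACZ replicate 2 (0.0574). Of its transcript windows of 50 bases, 54.6% also lie in transcripts of the opposite strand, and the sources used here do not say whether counting used strand. The main such gene, SNX33, was at 4.80 and 3.87 TPM with sgRNA1, 4.33 and 5.83 TPM with sgRNA3, and 6.11 and 8.63 TPM with LACZ. The next, AC105020.6, holds 20.5% of the IMP3 windows. The part of reads from these genes in the IMP3 value was not tested, so that value is uncertain.

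The partners of IMP3 did not pass. IMP4 was at 59.8 and 59.1 TPM in sgRNA1 libraries, 67.7 and 82.8 TPM in sgRNA3 libraries, and 54.0 and 56.9 TPM in LACZ libraries. All guide libraries were above LACZ, with a log2 change of 0.43 ± 0.10 and a limma adjusted p of 0.0644 with sgRNA3. MPHOSPH10 was at 30.9 and 33.1 TPM with sgRNA1, 33.6 and 38.1 TPM with sgRNA3, and 33.4 and 37.5 TPM with LACZ.

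**Figure D2:**
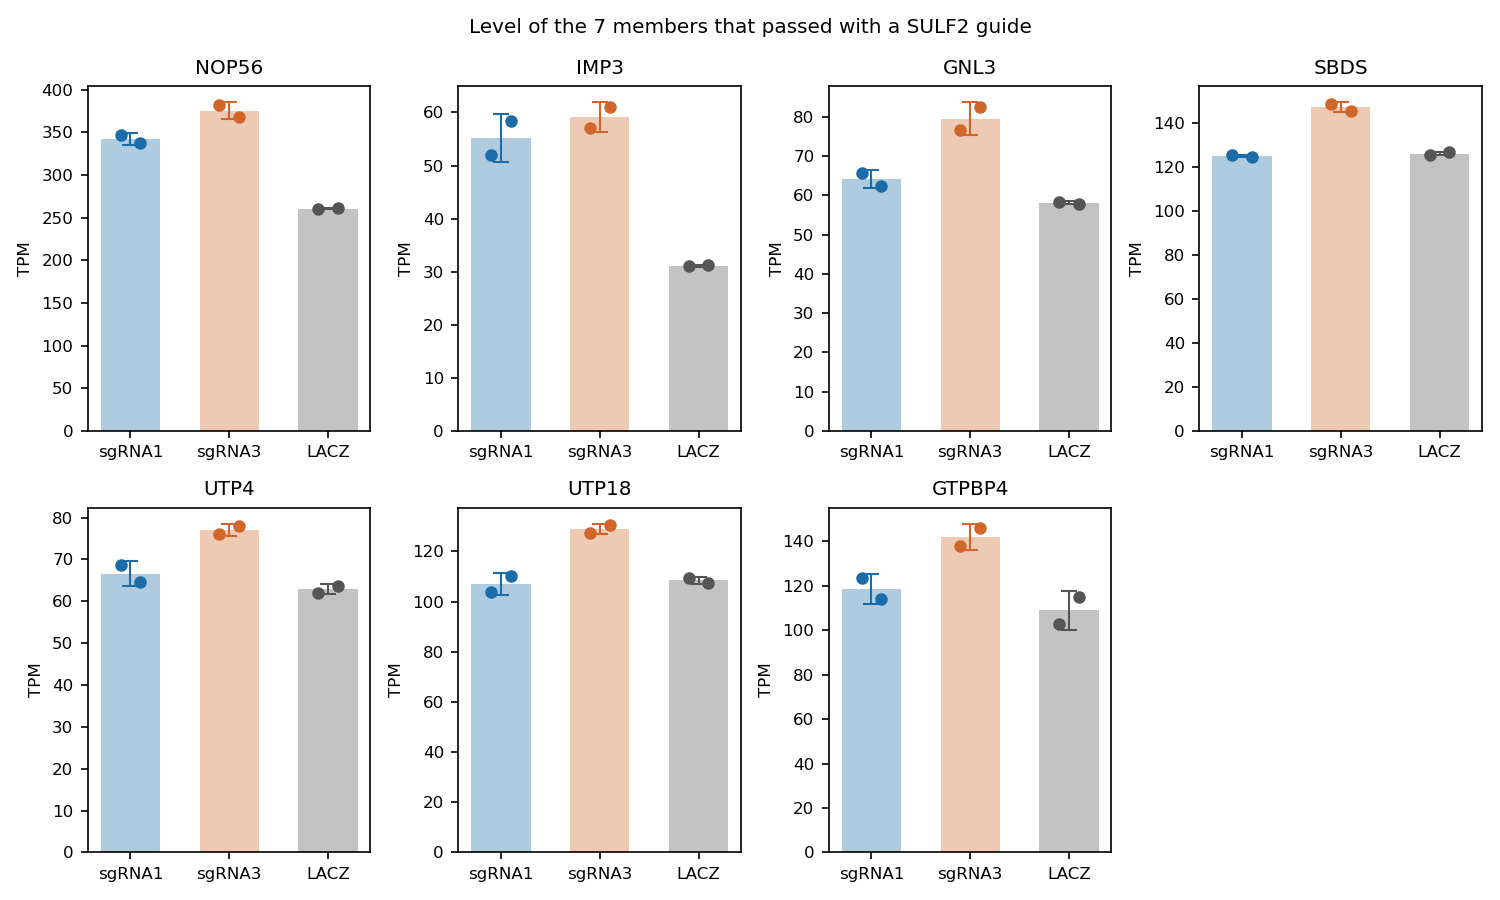
TPM (y axis, from 0) of the 7 members that passed with a guide, for sgRNA1, sgRNA3 and LACZ libraries (x axis). Points are the 2 libraries, bars their mean and whiskers the SD. NOP56 and IMP3 passed with both guides, and the other 5 passed with sgRNA3 alone. The sgRNA1 libraries of GNL3 and UTP4 also lie wholly above LACZ, although neither gene passed with sgRNA1.

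Another 9 members were listed with the small-subunit processome, though not all of them are parts of it. None passed, and 8 had log2 changes above 0 with sgRNA3 (44.5% of all genes). EMG1, which methylates a modified base of the small-subunit RNA, was at 32.4 and 30.5 TPM in sgRNA1 libraries, 31.7 and 36.5 TPM in sgRNA3 libraries, and 26.9 and 23.8 TPM in LACZ libraries. TCOF1 (treacle), which links RNA polymerase I to processing, was at 40.8 and 38.1 TPM with sgRNA1, 40.1 and 45.1 TPM with sgRNA3, and 33.6 and 34.1 TPM with LACZ. In both genes every guide library was above both LACZ libraries, and with sgRNA3 the limma adjusted p were 0.0727 and 0.0735. RBM28 was at 53.6 and 43.2 TPM with sgRNA1, 63.8 TPM in both sgRNA3 libraries, and 57.5 and 52.6 TPM with LACZ, and its groups overlapped for sgRNA1. FCF1, an endonuclease of the processome, was at 95.8 and 79.7 TPM with sgRNA1, 103 and 105 TPM with sgRNA3, and 104 and 105 TPM with LACZ. EMG1 shares 44% of its windows with transcripts of the opposite strand, and UTP14C shares 74% with another gene, so both values are uncertain.

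RNase MRP, built from nearly the same proteins as RNase P, cuts the precursor between the small- and large-subunit parts. None of the 9 members passed. POP7 was at 79.9 and 84.6 TPM in sgRNA1 libraries, 80.4 and 85.4 TPM in sgRNA3 libraries, and 76.9 and 67.9 TPM in LACZ libraries, above LACZ in all 4 guide libraries. RPP25 was at 15.5 and 14.1 TPM with sgRNA1, 17.8 and 16.5 TPM with sgRNA3, and 13.2 and 12.7 TPM with LACZ. RPP38 lay the other way, at 23.0 and 27.1 TPM with sgRNA1, 29.6 and 34.0 TPM with sgRNA3, and 35.7 and 36.8 TPM with LACZ, with a log2 change of -0.52 ± 0.11 and a limma adjusted p of 0.0616 with sgRNA1. Of its transcript windows, 21.2% lie in transcripts of the opposite strand, so its value is uncertain. That share was 24.1% for TBL3, 22.1% for HEATR1, 21.3% for NHP2, 16.6% for NOB1 and 16% for WDR3. Windows shared with other genes on the same strand made up 25.1% for CSNK2B and 22.9% for AK6. The values of these genes carry the same uncertainty.

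The 7 other nucleases on the map had log2 changes below 0 with sgRNA1 in every case (59.3% of all genes), between -0.55 and -0.03, and none passed. NOB1, which cuts the end of the small-subunit RNA in the cytoplasm, was at 56.2 and 60.2 TPM in sgRNA1 libraries, 63.2 and 65.5 TPM in sgRNA3 libraries, and 66.7 and 72.0 TPM in LACZ libraries, with a limma adjusted p of 0.0964 with sgRNA1. REXO5 was at 8.76 and 5.82 TPM with sgRNA1, 7.42 and 9.50 TPM with sgRNA3, and 11.6 and 10.3 TPM with LACZ. REXO2, the most abundant of these, was at 142 and 144 TPM with sgRNA1, 142 and 149 TPM with sgRNA3, and 153 and 152 TPM with LACZ. All guide libraries were below LACZ in these 3 genes.

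Late maturation of the small subunit in the cytoplasm depends on the kinases RIOK1 and RIOK2, and none of 3 members passed. RIOK2 was at 12.4 and 11.0 TPM in sgRNA1 libraries, 10.6 and 11.5 TPM in sgRNA3 libraries, and 15.1 and 17.1 TPM in LACZ libraries. Every guide library was below both LACZ libraries, with log2 changes of -0.50 ± 0.12 with sgRNA3 and -0.43 ± 0.12 with sgRNA1 and limma adjusted p of 0.0609 and 0.0979. RIOK1 was at 19.4 and 17.5 TPM with sgRNA1, 23.8 and 22.2 TPM with sgRNA3, and 20.0 and 23.9 TPM with LACZ. AK6, an ATPase acting at the same step, was at 74.1 and 91.0 TPM with sgRNA1, 73.9 and 87.1 TPM with sgRNA3, and 91.2 and 84.8 TPM with LACZ.

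Assembly of the large subunit uses GTPases and AAA ATPases that remodel the precursor, and 2 of 9 such members rose with sgRNA3, where 3.84% of all genes did. GNL3 (nucleostemin, chr3:52681156-52694492, plus strand), a nucleolar GTPase of stem and tumour cells, was at 65.8 and 62.5 TPM in sgRNA1 libraries, 76.7 and 82.5 TPM in sgRNA3 libraries, and 58.4 and 57.8 TPM in LACZ libraries. Its log2 change was 0.45 ± 0.06 with sgRNA3 and 0.14 ± 0.06 with sgRNA1, with limma adjusted p of 0.0185 and 0.242. The sgRNA3 call was lost without sgRNA3 replicate 1 (adjusted p = 0.0723), sgRNA3 replicate 2 (0.0983), LACZ replicate 1 (0.0961) or LACZ replicate 2 (0.104). It was also lost with no variance trend (0.0615) and with the replicate number added to the fit (0.0543). GTPBP4, the human NOG1 protein (chr10:988019-1019936, plus strand), was at 124 and 114 TPM with sgRNA1, 138 and 146 TPM with sgRNA3, and 103 and 115 TPM with LACZ. It rose with sgRNA3 (log2 change 0.38 ± 0.08, limma adjusted p = 0.0445), and the sgRNA1 values overlapped with LACZ. Leaving out any 1 of the 6 libraries ended that call, with adjusted p between 0.0708 and 0.177. Of its transcript windows, 20.4% lie in transcripts of the opposite strand. MDN1 (midasin), a giant AAA ATPase, was at 12.2 TPM in both sgRNA1 libraries, 14.3 and 15.5 TPM with sgRNA3, and 9.00 and 11.4 TPM with LACZ, with a limma adjusted p of 0.0783 with sgRNA3. In the set of 9, 8 log2 changes were above 0 with sgRNA3 (44.5% of all genes), with a median of 0.37, the exception being EFL1 at -0.13.

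The last step frees the large subunit of EIF6, a protein that keeps the subunits apart. SBDS (chr7:66987677-66995601, minus strand), which acts in that release with EFL1 and is mutated in Shwachman-Diamond syndrome, was at 125 TPM in both sgRNA1 libraries, 149 and 146 TPM in sgRNA3 libraries, and 126 and 127 TPM in LACZ libraries. It rose with sgRNA3 by a log2 change of 0.22 ± 0.04 (limma adjusted p = 0.0348). With sgRNA1 the change was -0.01 ± 0.04 (adjusted p = 0.88), with the sign above 0 after both other scalings. Omission of each single library ended the sgRNA3 call, with adjusted p between 0.0602 and 0.156. EIF6 was at 428 and 435 TPM with sgRNA1, 482 and 477 TPM with sgRNA3, and 440.0 and 467 TPM with LACZ. NMD3, the export adaptor of the large subunit, was at 42.3 and 41.0 TPM with sgRNA1, 49.7 and 49.1 TPM with sgRNA3, and 48.2 and 48.5 TPM with LACZ, with a limma adjusted p of 0.0907 with sgRNA1. SBDSP1, a transcribed pseudogene that shares 11.8% of the windows of SBDS, was at 77.7 and 89.3 TPM with sgRNA1, 107 and 104 TPM with sgRNA3, and 84.0 and 79.6 TPM with LACZ. The 2 genes were both highest in sgRNA3 libraries, and reads of shared stretches may be split between them.

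Receptors of nuclear export and their partners are also on the map, and none of 5 members passed. RAN was at 772 and 689.9 TPM in sgRNA1 libraries, 599.8 and 675 TPM in sgRNA3 libraries, and 588 and 703 TPM in LACZ libraries, with overlapping groups. XPO1, the receptor for both subunits, was at 148 and 136 TPM with sgRNA1, 151 TPM in both sgRNA3 libraries, and 148 and 151 TPM with LACZ. NXF1 was at 43.5 and 36.4 TPM with sgRNA1, 42.7 and 38.8 TPM with sgRNA3, and 32.4 and 35.4 TPM with LACZ. NXT2 was at 12.3 and 13.5 TPM with sgRNA1, 10.4 and 11.6 TPM with sgRNA3, and 12.3 and 11.4 TPM with LACZ.

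**Figure D3:**
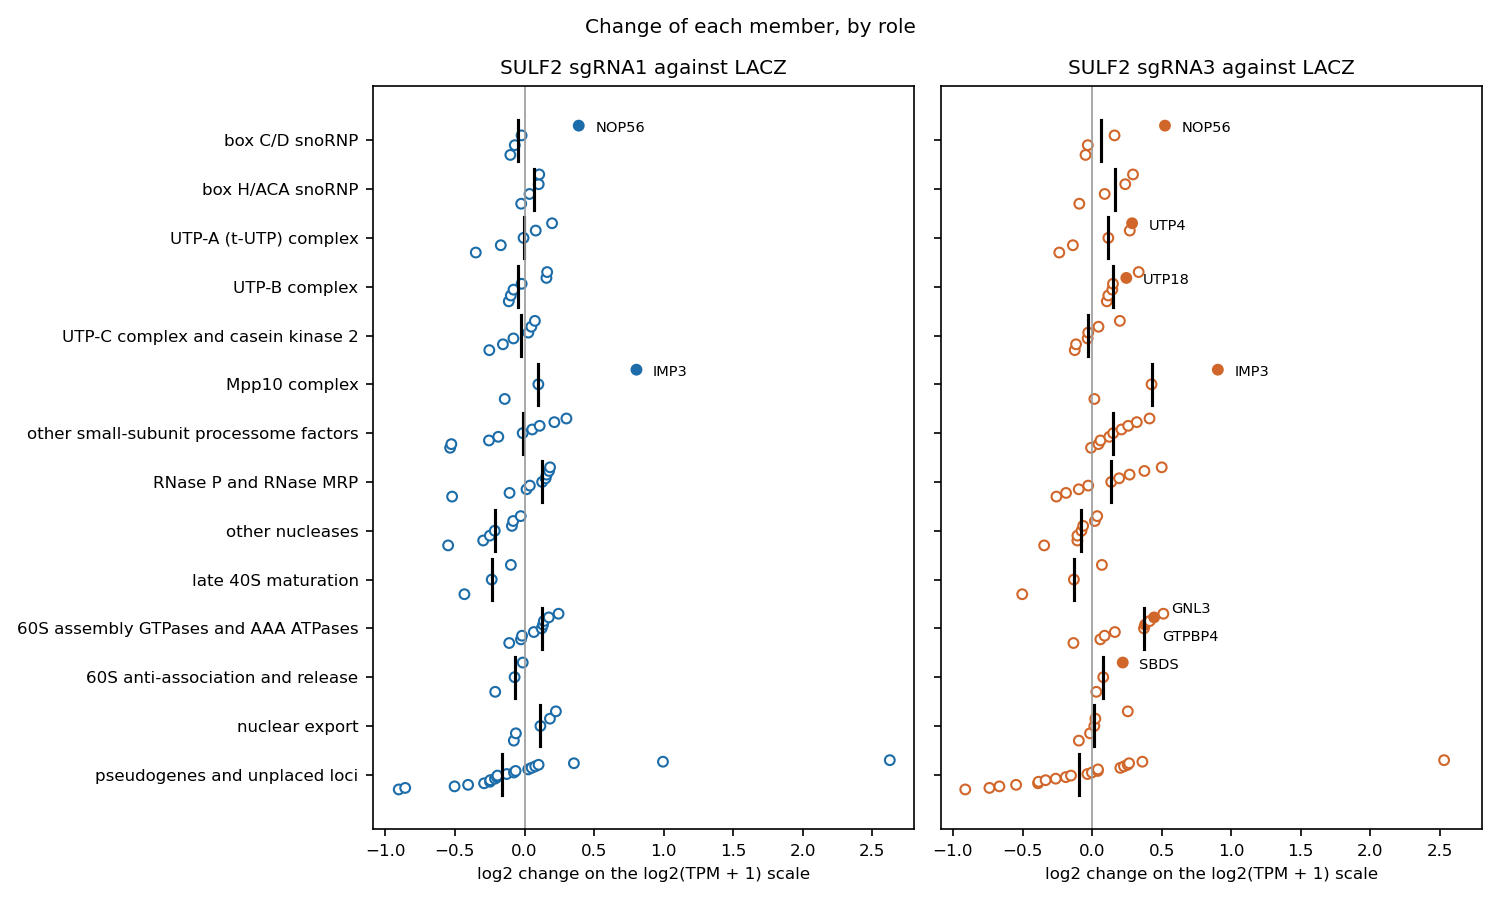
Log2 change of each member (x axis, log2(TPM + 1) scale) by role (rows), for sgRNA1 (left) and sgRNA3 (right) against LACZ. Filled points passed at a limma adjusted p under 0.05 and are named, open points did not, and black bars are row medians, which reach 0.37 with sgRNA3 for the large-subunit GTPases and AAA ATPases.

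Among the 20 pseudogenes and unplaced loci none passed, and their median log2 change was -0.09 with sgRNA3 and -0.16 with sgRNA1. BMS1P2 was at 4.04 and 2.62 TPM in sgRNA1 libraries, 3.45 and 3.84 TPM in sgRNA3 libraries, and 7.02 and 6.47 TPM in LACZ libraries, with limma adjusted p of 0.0789 with sgRNA1 and 0.0892 with sgRNA3. GNL3LP1 was at 0.91 and 1.17 TPM with sgRNA1, 0.73 and 0.91 TPM with sgRNA3, and 1.60 and 2.20 TPM with LACZ. AC022400.5 was listed at 0 and at 1.36 TPM with sgRNA1, at 0.35 and 0.73 TPM with sgRNA3, and at 1.91 and 1.84 TPM with LACZ. The listed values of these 3 loci were lower than LACZ in every guide library. Much of their sequence is shared with other genes on the same strand. The shared part was 58.5% of transcript windows for BMS1P2, 93.7% for GNL3LP1 (with ERCC8) and 77% for AC022400.5. Reads could be split between these loci and other genes, so the values are uncertain. A pair of loci had replicates far apart, AC092115.3 with both guides and ARMCX5-GPRASP2 with sgRNA1. Both were picked out after their values were seen. AC092115.3, which shares 70.5% of its windows with NOB1 on the opposite strand, was at 1.56 and 70.3 TPM with sgRNA1, 6.04 and 21.7 TPM with sgRNA3, and 1.36 and 1.03 TPM with LACZ. The read-through locus ARMCX5-GPRASP2 was at 59.7 and 12.8 TPM with sgRNA1, 16.0 and 15.4 TPM with sgRNA3, and 11.6 and 15.7 TPM with LACZ.

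Set directly against each other, the guides gave no member that passed, although values with sgRNA3 were often the higher ones. In sgRNA3 against sgRNA1, 0 members were higher and 0 lower in limma (0.391% and 0.187% of all genes), and at an unadjusted p under 0.05 there were 20 higher and 1 lower (9.49% and 5.86% of all genes). The median log2 difference was 0.11, against 0.04 over all genes. Of the 93 members, 67 had a positive difference and 26 a negative one (56.8% and 43.1% of all genes). The sgRNA3 libraries lay wholly above the sgRNA1 libraries in 40 members and wholly below in 7 (28.2% and 18.8% of all genes). The smallest adjusted p was that of SBDS, 0.101, with a log2 difference of 0.23 ± 0.04. For UTP18, UTP4, GNL3 and GTPBP4 the log2 differences were 0.27, 0.21, 0.31 and 0.26, and their adjusted p ran between 0.117 and 0.229. An effect of 1 guide on these 5 genes that the other lacks was therefore not shown. The sgRNA3 calls of UTP18, UTP4 and GTPBP4 also ended with no filter, with only the groups compared and with no variance trend (adjusted p between 0.0557 and 0.133), and that of SBDS under the last 2 of these (0.0597 and 0.137).

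**Figure D4:**
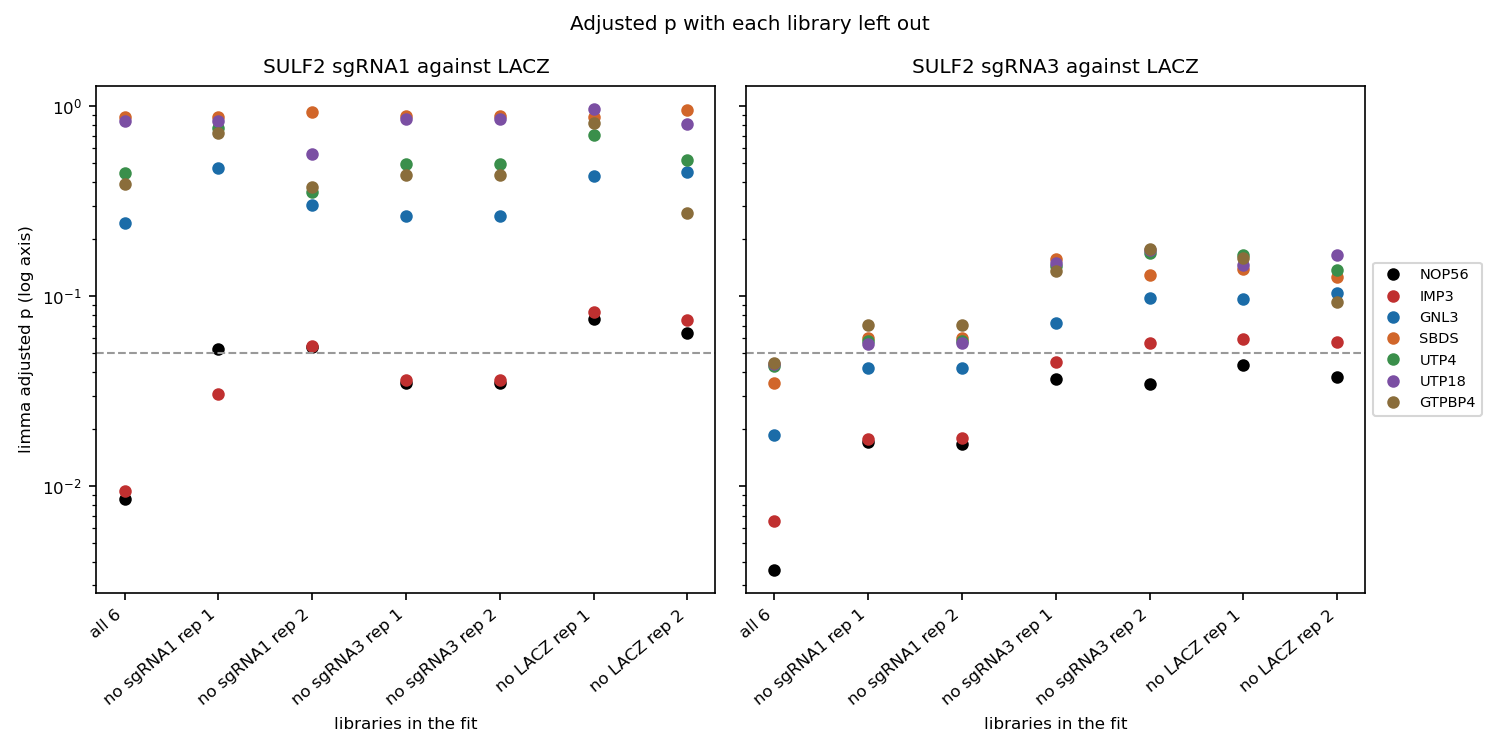
Limma adjusted p (y axis, log axis) of the 7 members, with all 6 libraries and with each library left out (x axis), for sgRNA1 (left) and sgRNA3 (right) against LACZ; the dashed line is 0.05. In the sgRNA3 panel NOP56 stays under the line throughout, between 0.00364 and 0.0435, and the values of SBDS, UTP4, UTP18 and GTPBP4 lie above the line whichever library is left out.

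Ribosome biogenesis genes that the map does not hold were listed by role, and 115 of them were tested. With sgRNA3, 18 rose (15.7%, against 3.84% of all genes) and 1 fell (0.87%, against 5.25%), with a median log2 change of 0.22. With sgRNA1, 2 rose (1.74%, a share near the 1.69% of all genes) and 1 fell (0.87%, against 4.31%), with a median of 0.07. The sgRNA3 count was between 0 and 10 when 1 library was left out, at 0 without sgRNA3 replicate 2, LACZ replicate 1 or LACZ replicate 2, at 1 without sgRNA3 replicate 1, and at 9 and 10 without sgRNA1 replicate 1 or 2. It was 1 with no variance trend, 3 with a replicate block, and 8 with no filter or with only the groups compared. At a minimum of 5 TPM it was 25, and after median-of-ratios scaling and quantile normalization it was 30 and 27. The count over all genes moved as well. It was 637 in the main fit, 180 with no variance trend, 252 with a replicate block, 795 at a minimum of 5 TPM, and 1042 and 776 after the 2 scalings. The median of the 115 genes with sgRNA3 stayed between 0.19 and 0.27 under these settings.

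Among 27 further genes of small-subunit assembly, 5 rose with sgRNA3 and 1 with sgRNA1 (3.84% and 1.69% of all genes). TSR3, which modifies the small-subunit RNA, rose with both guides, at 38.8 and 36.1 TPM in sgRNA1 libraries, 40.6 and 41.7 TPM in sgRNA3 libraries, and 26.8 and 28.9 TPM in LACZ libraries (limma adjusted p = 0.0408 with sgRNA1 and 0.018 with sgRNA3). The sgRNA1 call ended with the omission of any single library, with adjusted p between 0.0955 and 0.176. The sgRNA3 call was lost without sgRNA3 replicate 1 or 2 (0.0934 and 0.101) or LACZ replicate 1 or 2 (0.0952 and 0.078). RRP36 was at 134 and 146 TPM with sgRNA1, 149 and 144 TPM with sgRNA3, and 113 and 97.2 TPM with LACZ, and rose with sgRNA3 (adjusted p = 0.0341, and between 0.0629 and 0.148 without any 1 library).

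Among 41 further genes of large-subunit assembly, 7 rose with sgRNA3 (3.84% of all genes). LYAR, a nucleolar zinc-finger protein, was at 49.4 and 48.8 TPM in sgRNA1 libraries, 60.7 and 67.1 TPM in sgRNA3 libraries, and 35.6 and 39.3 TPM in LACZ libraries. Its log2 change with sgRNA3 was 0.76 ± 0.08 (limma adjusted p = 0.0105), lost without sgRNA3 replicate 2 (0.0669), LACZ replicate 1 (0.0678) or LACZ replicate 2 (0.0518). FTSJ3, a methyltransferase, was at 64.5 and 69.8 TPM with sgRNA1, 71.9 and 71.6 TPM with sgRNA3, and 51.6 and 56.4 TPM with LACZ, and rose with sgRNA3 (adjusted p = 0.0326, and between 0.0528 and 0.139 without any 1 library). With sgRNA1, RRP15 rose and RSL24D1 fell, both named after their values were seen. RRP15 was at 12.3 and 11.2 TPM with sgRNA1, 9.50 and 9.15 TPM with sgRNA3, and 6.25 and 6.90 TPM with LACZ (adjusted p = 0.0293 with sgRNA1). RSL24D1 was at 59.6 and 64.1 TPM with sgRNA1, 66.9 and 72.9 TPM with sgRNA3, and 92.2 and 82.4 TPM with LACZ (adjusted p = 0.0365 with sgRNA1). Both calls were lost without any 1 library, with adjusted p between 0.0767 and 0.139 for RRP15 and between 0.0767 and 0.16 for RSL24D1.

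Of 18 nucleolar chaperones and helicases, 6 rose with sgRNA3 and 0 with sgRNA1 (3.84% and 1.69% of all genes). NOLC1, a snoRNP chaperone, was at 146 and 139 TPM in sgRNA1 libraries, 168 and 166 TPM in sgRNA3 libraries, and 127 and 131 TPM in LACZ libraries. Its limma adjusted p with sgRNA3 was 0.0133, and the call was lost without sgRNA3 replicate 1 or 2 (0.088 and 0.0828) or LACZ replicate 1 or 2 (0.0829 and 0.0757). DDX18, a helicase of the large-subunit path, was at 59.0 and 55.6 TPM with sgRNA1, 61.7 and 65.5 TPM with sgRNA3, and 49.5 and 51.6 TPM with LACZ (adjusted p = 0.043 with sgRNA3, and between 0.0662 and 0.172 without any 1 library).

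The RNA exosome trims precursor ends. Of its 14 genes, 0 passed in limma with either guide. At an unadjusted p under 0.05 there were 3 higher with sgRNA3 and 1 higher with sgRNA1 (11.7% and 8.36% of all genes). Their median log2 change was 0.18 with sgRNA3 and 0.09 with sgRNA1. EXOSC4 was at 43.6 and 44.4 TPM in sgRNA1 libraries, 44.5 and 45.3 TPM in sgRNA3 libraries, and 31.9 and 39.7 TPM in LACZ libraries. EXOSC2 was at 23.6 and 21.7 TPM with sgRNA1, 25.3 and 25.6 TPM with sgRNA3, and 21.4 and 17.9 TPM with LACZ. Of 15 RNA polymerase I genes, 0 rose and 1 fell with sgRNA3 in limma (3.84% and 5.25% of all genes). At an unadjusted p under 0.05, 3 were higher and 2 lower (11.7% and 16.3% of all genes), and their median log2 change was 0.07. The gene that fell was TAF1B, a subunit of the selectivity factor that places the polymerase on its promoter. TAF1B was at 36.7 and 34.1 TPM with sgRNA1, 15.2 and 17.0 TPM with sgRNA3, and 24.0 and 26.2 TPM with LACZ. The guides lay on opposite sides of LACZ, and TAF1B was lower in sgRNA3 than in sgRNA1 libraries (limma adjusted p = 0.0254), as it was lower in sgRNA3 than in LACZ libraries (0.0254). Without any 1 library, the adjusted p ran between 0.0532 and 0.12 for sgRNA3 against LACZ and between 0.091 and 0.127 between the guides. TTF1 was at 8.84 and 10.1 TPM with sgRNA1, 9.42 and 9.60 TPM with sgRNA3, and 6.96 and 6.02 TPM with LACZ, and did not pass.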

How the data were processed

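Total RNA of 6 CFPAC-1 libraries (3 groups of 2) was sequenced. The authors deposited 1 table of TPM values per gene. The submitters' processing notes name the GRCh38 build, RSEM 1.3.1, HISAT2 2.1.0 and DESeq2 1.24.0, without their roles or a strand setting. Library depth cannot be read from TPM values, and no count test was run. Columns were matched to samples by guide number and replicate. From the deposited TPM, log2(TPM + 1) was computed for genes with at least 1 TPM in at least 2 libraries and tested with limma 3.58.1 in R 4.3.3 (variance trend, 3 groups in 1 fit, 3 residual and 2.34 prior degrees of freedom), and the scripts were tested on simulated data. Coordinates and gene types came from GENCODE 29, which held 58611 of the table's genes and 91 of 93 members; promoter sequence came from RefSeq.

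The members and lists were chosen with earlier results of these data known. Every member that passed is named; in each role up to 3 members with the smallest of the larger p against LACZ and the most abundant one are given by library, and up to 2 genes by the same measure in each list outside the map. Alternatives were other pseudocounts, filters, scalings, variance priors and samples, a replicate block, and each library left out.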

Additional observations from a re-analysis of the deposited data

How the results depend on the processing

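With sgRNA3 the count of members that rose, 7, was 4 with no filter, 13 after median-of-ratios scaling, 11 after quantile normalization, 2 with no variance trend, 4 with only the groups compared, and 1 to 4 with 1 library left out. The count over all genes moved with it: 637 rose with sgRNA3, against 345, 1042, 776, 180 and 361 under the first 5 of these settings and 76 to 370 with 1 library left out; with sgRNA1, 281 became 62 with no variance trend and 30 to 79 with 1 library left out. With sgRNA1 the count of 2 was 1 with no variance trend and 0 to 2 with 1 library left out, and for both guides together it was likewise 1 and 0 to 2. At a minimum of 5 TPM, 1 of 82 members fell with each guide, RPP38 with sgRNA1 and RIOK2 with sgRNA3. Of the 11960 genes tested at that minimum, 966 fell with sgRNA1 and 1021 with sgRNA3. A fit with a replicate block gave 2 members higher with sgRNA3 (252 over all genes) and 2 with sgRNA1 (91 over all genes), NOP56 and IMP3 in both cases; the sgRNA3 calls of GNL3 (adjusted p = 0.0543), SBDS, UTP18, GTPBP4 and UTP4 (0.0791 to 0.0891) ended. Deviations of same-numbered libraries correlated at -0.0314, -0.0179 and 0.0061 across genes, so no shift shared by same-numbered libraries was seen. Whether such libraries were prepared together cannot be read from these values. Signs turned for SBDS with sgRNA1 after median-of-ratios scaling (0.0707) and quantile normalization (0.011). The same held for UTP18 with sgRNA1 (0.0626 and 0.0082), where leaving out sgRNA1 replicate 1 or 2 gave 0.0218 and -0.0631. No member passed between the guides under any of the 15 alternatives. Leaving out 1 library leaves its group with a lone sample, which is assumed to vary like the other groups. The causes of these shifts were not tested. TPM gives no library depth, so no counting error could be set beside these values.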
